A study of Homo sapiens with 8 samples.

Results

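Glycolysis and glucose uptake are represented here by 34 genes: the sugar and lactate carriers, the enzymes from hexokinase to lactate dehydrogenase, the enzymes that set fructose bisphosphate signalling, the pyruvate dehydrogenase kinases and TXNIP. They were chosen by symbol, with earlier results of these data known, as 34 of 20037 protein-coding genes. A peak of bound mTOR was counted for one of them when the deposited annotation named that gene as its nearest and its centre lay within 50 kb of the transcription start site (TSS). By this rule the genes held 28 of 24948 peaks in the first of the lists described next, 31 of 26074 in the next, 47 of 35121 in the third and 47 of 39570 in the last.

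The lists come from chromatin immunoprecipitation of mTOR, a kinase that relays nutrient and growth factor signals, followed by sequencing, in LNCaP cells, an established androgen-responsive human prostate cancer line. In the order used throughout, the libraries are empty hairpin vector with ethanol vehicle (shEV EtOH), empty vector with the synthetic androgen R1881 (shEV R1881), hairpin against the pioneer factor FoxA1 with vehicle (shFoxA1 EtOH) and the same hairpin with R1881 (shFoxA1 R1881). All of them share an androgen-poor phase of 48 h in 2% charcoal-stripped serum before 24 h of 0.1% ethanol or 10 nM R1881, so the vehicle cells are androgen-deprived cells. Each group was 1 library, so no value below has a replicate check and no p-value is given.

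Glycolysis splits glucose into pyruvate in the cytosol, and cells either reduce the pyruvate to lactate or pass it to the mitochondria through pyruvate dehydrogenase. mTOR is known mainly as a cytoplasmic kinase that raises glycolytic gene expression through the transcription factors HIF1A and MYC, and a nuclear pool of mTOR has also been described. Androgen is known to raise glucose uptake and glycolysis in LNCaP cells.

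The start sites of 5 genes carry the contrasts described below, and the 250 bases before each are printed for that reason. PGK1 had a promoter peak in all 4 lists, TXNIP in all but shEV EtOH, LDHA in all but shEV R1881, and PKM and TIGAR had one at this start site in the EtOH lists and in neither R1881 list. The sequences are from RefSeq, build GRCh38.p14, each read 5′ to 3′ on its gene's strand: PGK1 chrX:78103998-78104247 on the plus strand, TXNIP chr1:145996580-145996829 on the minus strand, LDHA chr11:18394313-18394562 on the plus strand, PKM chr15:72231191-72231440 on the minus strand and TIGAR chr12:4320963-4321212 on the plus strand. Capitals mark matches on either strand to AGAACA (a half-site of the androgen receptor element) and TGTTTAC (forkhead factors such as FoxA1). They also mark CACGTG (the E-box of MYC), ACGTG or GCGTG (the core of the HIF1A element) and TGACGTCA (the cyclic AMP response element).
PGK1: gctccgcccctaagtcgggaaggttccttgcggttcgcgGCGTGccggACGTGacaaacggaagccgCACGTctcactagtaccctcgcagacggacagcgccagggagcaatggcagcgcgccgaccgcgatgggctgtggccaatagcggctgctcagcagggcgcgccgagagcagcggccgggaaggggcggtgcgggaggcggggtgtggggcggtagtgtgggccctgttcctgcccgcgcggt
TXNIP: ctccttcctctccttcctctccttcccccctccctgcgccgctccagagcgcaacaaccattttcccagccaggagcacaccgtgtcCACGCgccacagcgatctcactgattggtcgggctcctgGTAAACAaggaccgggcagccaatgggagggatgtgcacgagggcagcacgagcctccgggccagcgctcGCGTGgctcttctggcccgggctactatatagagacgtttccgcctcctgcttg
LDHA: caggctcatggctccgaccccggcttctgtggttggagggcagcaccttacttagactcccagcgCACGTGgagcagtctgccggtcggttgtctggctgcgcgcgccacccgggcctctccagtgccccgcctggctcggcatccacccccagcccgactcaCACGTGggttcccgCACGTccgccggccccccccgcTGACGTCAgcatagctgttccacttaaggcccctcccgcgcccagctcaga
PKM: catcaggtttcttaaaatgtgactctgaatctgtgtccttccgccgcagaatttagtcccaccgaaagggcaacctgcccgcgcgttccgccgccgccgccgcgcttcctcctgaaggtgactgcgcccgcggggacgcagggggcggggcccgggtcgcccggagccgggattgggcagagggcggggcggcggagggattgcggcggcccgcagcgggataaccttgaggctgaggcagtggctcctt
TIGAR: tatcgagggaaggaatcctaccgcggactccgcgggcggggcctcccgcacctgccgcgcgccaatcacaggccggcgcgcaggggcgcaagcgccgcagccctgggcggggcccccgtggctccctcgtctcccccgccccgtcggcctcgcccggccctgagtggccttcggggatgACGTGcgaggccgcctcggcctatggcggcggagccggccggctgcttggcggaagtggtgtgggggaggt

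The LDHA stretch held 2 E-boxes and 1 cyclic AMP response element, and ACGTG matched 5 times over both strands because each E-box also contains it on both. The PGK1 stretch held 2 matches to ACGTG and 1 to GCGTG, and the TXNIP stretch 1 forkhead match and 2 to GCGTG. In TIGAR the only capitals are 1 match to ACGTG, and PKM has none. A match is a description of the letters and not a measured site.

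Peaks lay at these genes more often than at coding genes at large in every list. In shEV EtOH 18 of 34 had a peak (52.9%, Wilson 95% interval 36.7 to 68.5), against 36.5% of all coding genes. In shEV R1881 17 had one (50%, 34.1 to 65.9), against 37.5%. The shFoxA1 lists, the longer ones, gave 26 genes (76.5%, 60 to 87.6) against 49.1% in EtOH, and 24 genes (70.6%, 53.8 to 83.2) against 51.6% in R1881. The coding share lay below the interval in both shFoxA1 lists, only just below it in shEV EtOH (36.5 against 36.7%) and inside it in shEV R1881. With each list limited to its 10000 peaks of highest score, the 34 genes stood nearer to the rest, with 17.6, 26.5, 26.5 and 20.6% against 17, 17.4, 18.2 and 18.5%.

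Close to the start sites the 34 genes stood farther from the rest. A peak centred within 1 kb, called a promoter peak here, was present at 12 genes in shEV EtOH (35.3%, 21.5 to 52.1, against 15.2% of coding genes) and at 9 in shEV R1881 (26.5%, 14.6 to 43.1, against 13.8%). It was present at 21 in shFoxA1 EtOH (61.8%, 45 to 76.1, against 27.4%) and at 16 in shFoxA1 R1881 (47.1%, 31.5 to 63.3, against 26.8%). The intervals lay above the coding share in all 4 lists. They cover counting error over genes only, and not the choice of genes, which was made with earlier results of these data known. With either hairpin fewer of the genes had a promoter peak in R1881 than in EtOH by the deposited gene names. Counted from the RefSeq start for 31 of the genes, whichever gene was named, the numbers were 10 and 10 with shEV and 19 and 13 with shFoxA1. The coding share was not counted in this way. In the narrower start windows described below, also by position, the shares were 25.8, 9.68, 45.2 and 32.3%, against 11.5, 10.2, 23.3 and 22.3% of coding windows. By that measure the genes did not stand above the rest in shEV R1881.

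**Figure D1:**
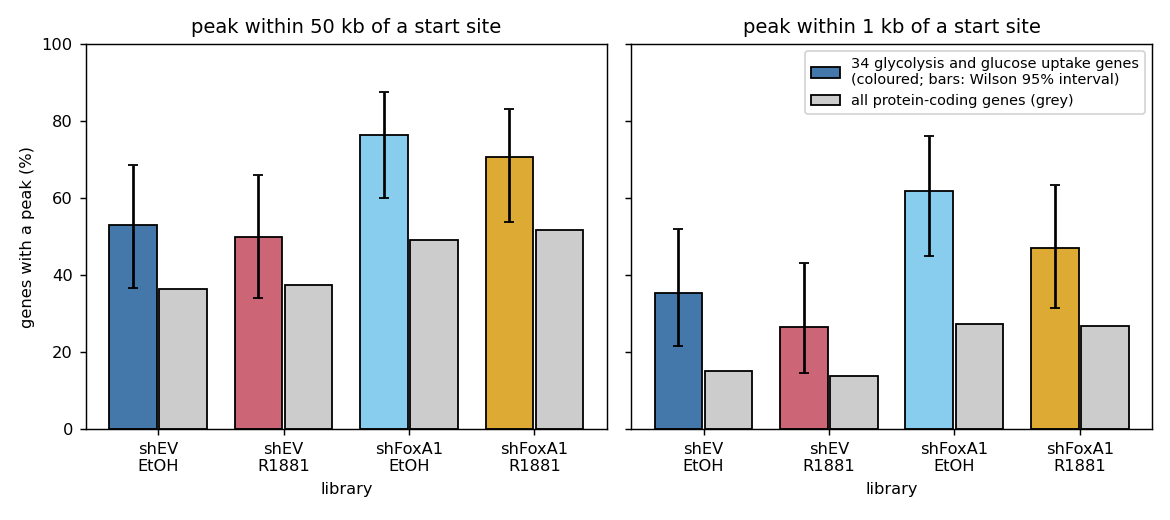
Percent of the 34 genes with a peak within 50 kb of the TSS (left) and within 1 kb (right) in each list, with Wilson 95% intervals, beside the percent of 20037 coding genes. Within 1 kb the 34 genes lie between 26.5% and 61.8% and the coding genes between 13.8% and 27.4%.

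Binding was spread unevenly over the genes. A peak was present in all 4 lists at 12 of them (35.3%, against 25.2% of coding genes) and in none at 7 (20.6%, against 37%). The 7 without a peak were the carriers SLC2A3 and SLC16A3, the enzymes ALDOC, TPI1, ENO3 and PFKFB2, and the kinase PDK3. A promoter peak was present in all 4 lists at 6 genes (17.6%, against 7.69%): PFKM, PFKFB3, GAPDH, PGK1, PGAM1 and PDK2. HK2, SLC2A10, SLC2A12, PDK1 and PDK4 had peaks only beyond 1 kb.

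**Figure D2:**
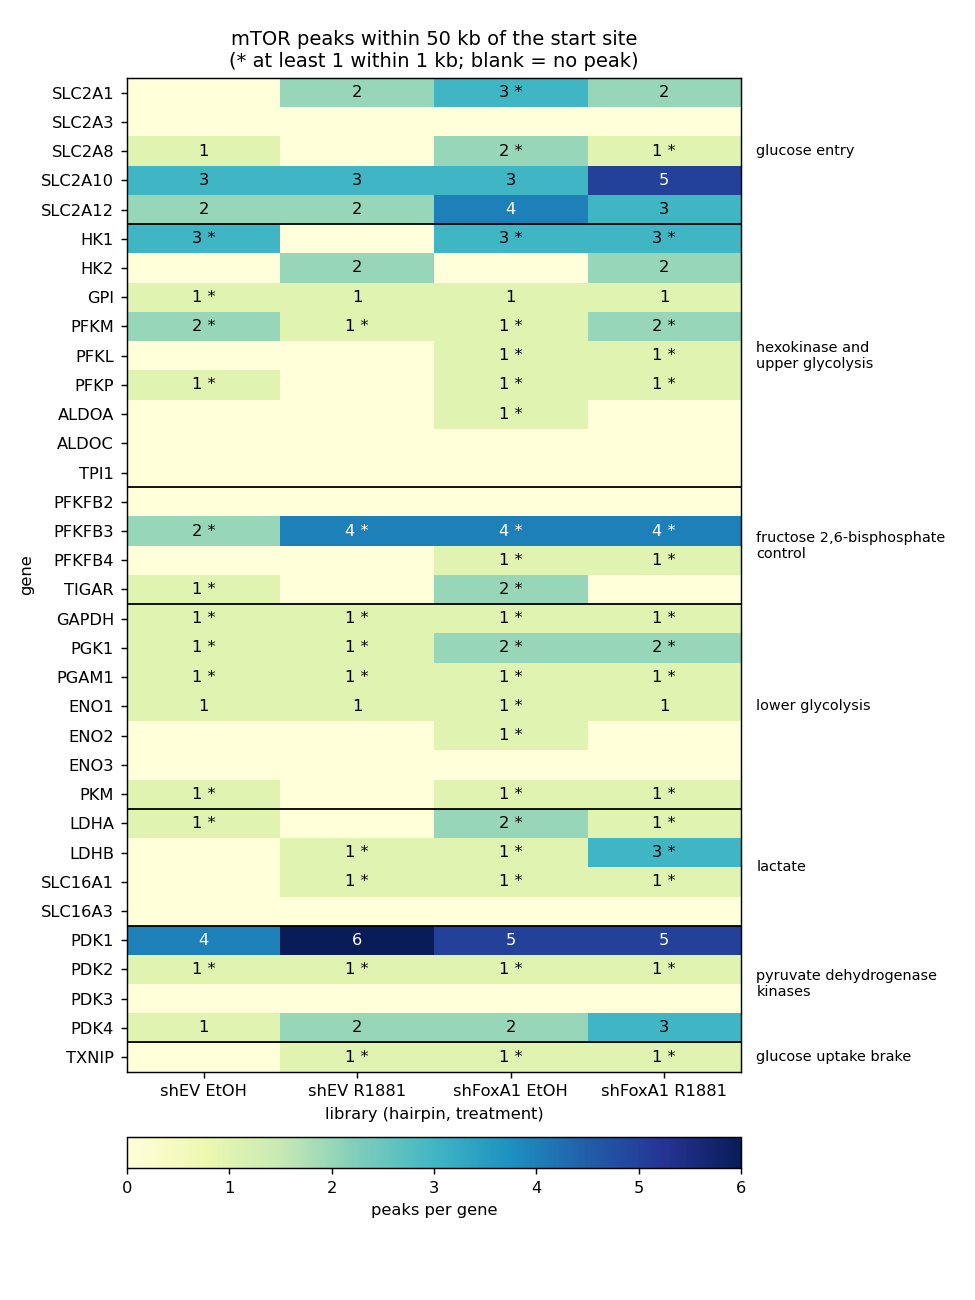
Number of peaks within 50 kb of the TSS of each of the 34 genes (rows, by role) in each of the 4 lists (columns), with an asterisk where at least 1 lies within 1 kb. Most filled cells of the enzymes from GPI to LDHB carry an asterisk, and none of those of HK2, SLC2A10, SLC2A12, PDK1 and PDK4 does.

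By the deposited gene names, glucose carriers had mainly distal peaks. So did coding genes at large, where promoter peaks were 28.4, 24.2, 34.5 and 29.6% of the peaks. SLC2A10 encodes GLUT10, and a region in its intron 1 (chr20, 46722903 to 46723530 in shFoxA1 EtOH) had the authors' score of 301, 393, 689 and 480 in the 4 lists in order. These scores stood at percentiles 93, 95.5, 97.9 and 96.6 of their own lists, so this peak was near the top of each. The region overlaps an MLT1J long terminal repeat (LTR), and 2 more regions, 3075 and 9717 bp upstream in shEV EtOH, were also present in all 4 lists.

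SLC2A12 encodes GLUT12. It had 2 regions in intron 2 that were in all 4 lists, and 1 in intron 1 (chr6, 134029919 to 134030359) in both shFoxA1 lists only, with scores of 75 and 83. SLC2A1 encodes GLUT1, the widely expressed glucose carrier. Its intron 2 held a peak in both R1881 lists and in neither EtOH list, centred 26620 bp from the TSS (chr1, 42932025 to 42932471 in shEV R1881), with scores of 135 and 49 at percentiles 80.5 and 37.4. At the SLC2A1 start site peaks overlapped in shEV EtOH, shEV R1881 and shFoxA1 EtOH, with scores of 67, 85 and 58, and shFoxA1 R1881 had none. The annotation names the antisense gene SLC2A1-AS1 for the shEV peaks, so the counts above hold only the shFoxA1 EtOH one.

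SLC2A8 encodes GLUT8, a carrier of intracellular membranes. A peak at the end of the gene (chr9, 127407767 to 127408413 in shEV EtOH) had scores of 227 and 134 in the EtOH lists, at percentiles 89.8 and 78.9, and was in neither R1881 list. A promoter peak in intron 2 was in the shFoxA1 lists only, with scores of 34 and 41.

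Among the enzymes of the upper pathway, the hexokinases HK1 and HK2, which phosphorylate glucose on entry, differed in where and when they had peaks. HK1 had 3 peaks in each list except shEV R1881, where it had none. Its promoter region (chr10, 69317953 to 69318435 in shEV EtOH) had scores of 20, 27 and 92 in the other lists, at percentiles 4.37, 10.1 and 69.1. A pair of further regions, in intron 1 (scores 20 and 49) and intron 3 (27 and 34), were in both EtOH lists only. HK2, the inducible hexokinase of many tumours, had no peak in either EtOH list and 2 in each R1881 list. Its shared R1881 region in intron 1 (chr2, 74845245 to 74845684 in shFoxA1 R1881), 12809 bp from the TSS, had scores of 14 and 92. The score of 14 stood at percentile 0.71 of its list, so this call was among the weakest of shEV R1881.

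The phosphofructokinase genes encode the enzyme of the first committed step. PFKM had a promoter region in all 4 lists, with scores of 27, 42 and 83 in shEV EtOH, shEV R1881 and shFoxA1 R1881; the annotation names the neighbour SENP1 for the shFoxA1 EtOH peak. At a PFKM start site farther downstream (chr12, 48119396 to 48119985 in shEV EtOH) the scores were 67, 27 and 83 and shEV R1881 had no peak. PFKP likewise had a promoter peak in all lists but shEV R1881, with scores of 58, 66 and 49. PFKL had one in the shFoxA1 lists only, with scores of 27 and 34. ALDOA, an aldolase, had a peak in shFoxA1 EtOH alone, with a score of 49.

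GPI encodes the isomerase that follows hexokinase. It had 1 peak in each list, but not at the same place: 730 bp from the TSS in shEV EtOH, 37551 bp upstream in shEV R1881, and 5376 and 5649 bp upstream in the overlapping shFoxA1 peaks. The scores in list order were 14, 50, 21 and 41, at percentiles 0.802, 38, 3.76 and 28.4. Both EtOH calls were thus among the weakest of their lists. Counted by gene GPI appears in every list, and counted by region it does not.

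PFKFB3, PFKFB4 and TIGAR set the level of the bisphosphate that activates phosphofructokinase, the first of them raising it and TIGAR lowering it. PFKFB3 had a region at its internal start site in all 4 lists (chr10, 6202284 to 6204098 in shFoxA1 EtOH), with top scores of 58, 42, 144 and 112. A promoter region at its upstream start site was in all lists but shEV EtOH, with scores of 27, 58 and 41, and so was an intronic L1MB3 repeat, with 42, 75 and 83. A region over an L1PA12 repeat in intron 14 was in both R1881 lists only, with scores of 85 and 49. PFKFB4 had a peak over exon 2 in the shFoxA1 lists only, with scores of 42 and 27.

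TIGAR had a promoter peak in both EtOH lists and in neither R1881 list, with scores of 34 and 27 (chr12, 4320539 to 4321030 in shEV EtOH). The scores stood at percentiles 19.8 and 10.1, so both calls were low in their lists.

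Of the 7 lower enzymes, 5, 4, 6 and 5 had a peak in the 4 lists. PGK1 encodes phosphoglycerate kinase, and its promoter peak (chrX, 78103817 to 78104327) had scores of 239, 202, 166 and 294, at percentiles 90.5, 88.6, 84 and 93.1. It covers the printed PGK1 stretch. All 4 lists gave it the same first and last base, 511 bp apart by width. Of 10742 regions with 1 peak in each list, this was the only 1 with identical edges; 37 had starts and ends each within 10 bp, and the median range over the lists was 185 bp for starts and 187 bp for ends. A distal LTR2 element 35083 bp upstream of PGK1 was listed in both shFoxA1 lists only, with scores of 66 and 102. The promoter peak runs from 431 bases before the RefSeq start to 79 after it. The human PGK1 promoter is also a common element of hairpin vectors; the sources used here do not give the vector's sequence, and its part in this peak was not tested.

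GAPDH, the dehydrogenase before PGK1 in the pathway, had a promoter peak in each list, with scores of 42, 58, 34 and 102. The shEV EtOH peak (chr12, 6534585 to 6535313) and the shEV R1881 peak (6533989 to 6534377) did not overlap each other. The shFoxA1 EtOH peak overlapped parts of both, and the shFoxA1 R1881 peak covered both whole. In the merged regions the shEV peaks are thus joined only through the shFoxA1 peaks. PGAM1, the mutase, had scores of 105, 20, 144 and 74 at percentiles 72.6, 3.99, 80.9 and 59.4. Its region also held peaks assigned to the neighbour LOC644215, with scores of 27 in shEV R1881 and 34 in shFoxA1 EtOH (percentiles 10.6 and 18.6). The PGAM1 peak stood lowest in its list in shEV R1881.

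ENO1, the main enolase, had 1 region in all 4 lists (chr1, 8876620 to 8879397 in shFoxA1 EtOH), with scores of 67, 50, 297 and 122. Its centre lay within 1 kb of the TSS in shFoxA1 EtOH (678 bp) and just outside in the others (1259, 1272 and 1246 bp), so the promoter count of ENO1 turns on the 1 kb limit. It also turns on the gene named: over the ENO1 start itself, peaks with scores of 115 in shEV EtOH and 221 in shFoxA1 R1881 (percentiles 75.5 and 90.1) were assigned to the antisense gene ENO1-AS1 and are not in the counts. ENO2, the neuronal enolase, had a peak in shFoxA1 EtOH alone, with a score of 27. No peak was assigned to ENO3, the muscle enolase, although EtOH peaks assigned to its neighbour PFN1 overlapped the bases just before the ENO3 start with scores of 50 and 75.

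PKM encodes pyruvate kinase. At the start site printed above, it had a peak in both EtOH lists, with scores of 42 and 34 (chr15, 72231176 to 72231747 in shEV EtOH). In shFoxA1 R1881 a peak with a score of 34 lay at another PKM start site (72229758 to 72230328), and shEV R1881 had none.

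The lactate genes differed between the shEV lists, on calls that were low in those lists. LDHA, the lactate dehydrogenase subunit that favours lactate formation, had a promoter region with scores of 34, 247 and 57 in shEV EtOH, shFoxA1 EtOH and shFoxA1 R1881, at percentiles 19.8, 90.5 and 45.6, and no peak in shEV R1881. LDHB, the subunit that favours pyruvate, had no peak in shEV EtOH and scores of 27, 66 and 41 in the other 3, at percentiles 10.6, 52 and 28.4. SLC16A1, the lactate carrier MCT1, was listed like LDHB, with scores of 34, 42 and 57 at percentiles 19.3, 27.7 and 45.6. LDHA, LDHB and SLC16A1 all had peaks in both shFoxA1 lists.

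Pyruvate dehydrogenase kinases shut the entry of pyruvate into mitochondria. PDK1, a HIF1A target, had no promoter peak and between 4 and 6 distal peaks in each list. A region over a MER61-int element 15672 bp upstream in shEV EtOH (chr2, 172539085 to 172540317) had scores of 380, 504, 456 and 466, at percentiles 95.1, 96.9, 96 and 96.4. Another 2 regions in endogenous retroviral LTRs, 42312 and 29573 bp upstream in shEV EtOH, were also in all 4 lists, with top scores of 263, 191, 415 and 345 and of 115, 50, 155 and 197. An LTR27C element 21363 bp upstream had scores of 180, 188 and 57, and shEV R1881 had no peak there.

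PDK2 had a promoter peak in each list, with scores of 115, 34, 66 and 112 at percentiles 75.5, 19.3, 52 and 75.7. PDK4, a kinase induced by fasting in many tissues, had only distal peaks, in 5 regions. A region 46204 bp from the TSS (chr7, 95549987 to 95550673 in shFoxA1 R1881) was in both R1881 lists only, with scores of 85 and 83, and a region 13463 bp upstream was in both EtOH lists only, with 14 (percentile 0.802) and 58. A region 12330 bp upstream was in both shFoxA1 lists, and so in both treatments, with scores of 21 and 65, and the other 2 were in 1 R1881 list each.

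TXNIP lowers glucose uptake by drawing glucose carriers from the cell surface. Its promoter had no peak in shEV EtOH and scores of 179, 401 and 221 in shEV R1881, shFoxA1 EtOH and shFoxA1 R1881 (chr1, 145996379 to 145996819 in shEV R1881). These stood at percentiles 86.7, 95.1 and 90.1, so TXNIP was listed either not at all or among the higher peaks.

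**Figure D3:**
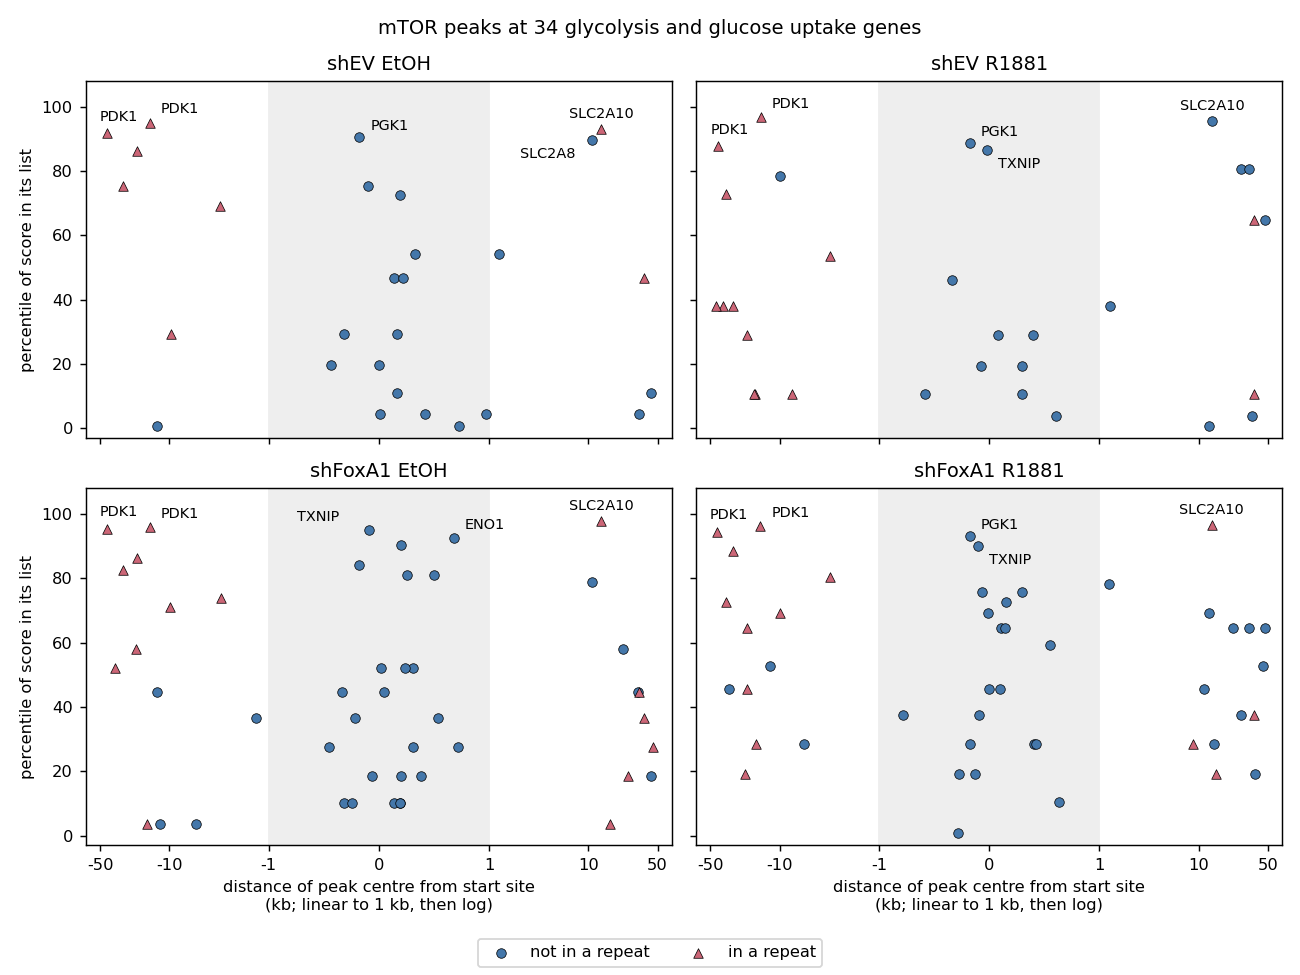
Distance of each peak's centre from the TSS of its gene (horizontal, kb, linear to 1 kb and logarithmic beyond) against the percentile of its score in its own list (vertical), 1 panel per list, with the 5 highest peaks named; grey marks 1 kb and triangles mark repeats. The distal peaks of PDK1 and SLC2A10 stand at the top of each panel, and no promoter peak lies in a repeat.

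Promoter and distal peaks of the 34 genes differed in kind. Promoter peaks were 15 of 28, 10 of 31, 24 of 47 and 20 of 47 of the genes' peaks in the 4 lists. That is 53.6, 32.3, 51.1 and 42.6%, against 28.4, 24.2, 34.5 and 29.6% of the peaks of coding genes. None of the promoter peaks was annotated to a repeat, against 8 of 13, 13 of 21, 15 of 23 and 14 of 27 of the distal ones. These repeat shares (61.5, 61.9, 65.2 and 51.9%) were below those of distal peaks at coding genes (75.8, 72.7, 69.9 and 67.4%). The lack of repeats in promoter peaks is not particular to the 34 genes. Without repeat peaks 14.8, 13.4, 26.9 and 26.2% of coding genes kept a promoter peak, against 15.2, 13.8, 27.4 and 26.8% with them. Median GC content was 66.5, 61.4, 67.1 and 63.3% in promoter peaks and 43.7, 46.7, 45.7 and 46.3% in distal ones, close to the medians of coding genes (65.6, 64.3, 65.5 and 64.5%, and 42.7, 42.9, 44.5 and 44.9%).

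The median percentile over all of the genes' peaks was 46.9, 38, 44.8 and 52.9, against 46.9, 46.2, 44.8 and 45.6 for coding genes. For distal peaks it was 69.1, 38, 44.8 and 52.9, against 54.1, 53.5, 52 and 52.9, with no common direction over the lists. For promoter peaks it was 29.2, 24.1, 36.6 and 45.6, against 38.4, 38, 44.8 and 45.6 for promoter peaks of coding genes. Promoter peaks at percentile 84 or above were those of PGK1, TXNIP and, in shFoxA1 EtOH, LDHA and ENO1.

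R1881 was compared with EtOH within each hairpin by asking which peaks of a list had no overlapping peak in the other. With shEV, 17 of 31 R1881 peaks were gained (54.8%, against 46.1% of peaks at coding genes) and 13 of 28 EtOH peaks were lost (46.4%, against 42.5%). Among promoter peaks 5 of 10 were gained (50%, against 39.7% of promoter peaks at coding genes) and 9 of 15 lost (60%, against 44.5%). By gene, 12 had a peak in both lists (35.3%, against 27.5% of coding genes). In R1881 alone 5 had one (14.7%, against 9.97%): HK2, LDHB, SLC16A1, SLC2A1 and TXNIP. The SLC2A1 start had a shEV EtOH peak assigned to SLC2A1-AS1, so by position SLC2A1 is not among them. In EtOH alone 6 genes had a peak (17.6%, against 9.02%): HK1, LDHA, PFKP, PKM, SLC2A8 and TIGAR. A promoter peak was present in R1881 alone at LDHB, SLC16A1 and TXNIP (8.82%, against 5.1%), and in EtOH alone at 6 genes (17.6%, against 6.46%): GPI, HK1, LDHA, PFKP, PKM and TIGAR.

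With shFoxA1 the treated and vehicle lists shared more. There, 14 of 47 R1881 peaks were gained (29.8%, against 43.1%) and 15 of 47 EtOH peaks were lost (31.9%, against 34.9%). By gene, 23 had a peak in both lists (67.6%, against 41.2%), HK2 in R1881 alone (2.94%, against 10.5%), and ALDOA, ENO2 and TIGAR in EtOH alone (8.82%, against 7.96%). Promoter peaks in R1881 alone were found at 0 genes, against 7.28% of coding genes, and in EtOH alone at 5 (14.7%, against 7.88%): ALDOA, ENO1, ENO2, SLC2A1 and TIGAR. The ENO1 start had the R1881 peak assigned to ENO1-AS1, so by position ENO1 is not among them. HK2 (R1881 alone) and TIGAR (EtOH alone) were the genes placed alike with either hairpin; the difference between hairpins was not tested.

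FoxA1 hairpin and empty vector were then compared within each treatment. The shFoxA1 lists were longer (35121 against 24948 peaks in EtOH, 39570 against 26074 in R1881), the libraries' depth is unknown, and FoxA1 level is not measured by these data. In EtOH 20 of 47 shFoxA1 peaks were gained (42.6%, against 51.2%). Lost was 1 of 28 shEV peaks (3.57%, against 25.3%), that of GPI with a score of 14 (percentile 0.802). In R1881 22 of 47 were gained (46.8%, against 54.6%) and 5 of 31 lost (16.1%, against 25.5%), at GPI, HK2, PDK1, PDK4 and SLC2A1. The peaks lost in R1881 were 5 of 21 distal ones (23.8%, against 28.4% of distal peaks at coding genes) and 0 of 10 promoter ones (against 16.3%).

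Of the 34 genes, 0 had a peak in a shEV list and none in the matching shFoxA1 list, against 4.12% of coding genes in EtOH and 3.83% in R1881. In EtOH, 8 genes had a peak with shFoxA1 alone (23.5%, against 16.7%): ALDOA, ENO2, LDHB, PFKFB4, PFKL, SLC16A1, SLC2A1 and TXNIP. By position SLC2A1 is not among these, as the shEV EtOH peak over its start was assigned to SLC2A1-AS1. In R1881, 7 genes had a peak with shFoxA1 alone (20.6%, against 18%): HK1, LDHA, PFKFB4, PFKL, PFKP, PKM and SLC2A8. The longer list of each pair was then held to the length of the shorter by score. The gained peaks were 11 of 32 in EtOH (34.4%, against 38.2% at coding genes) and 12 of 33 in R1881 (36.4%, against 39.6%). The lost peaks were 7 of 28 (25%, against 34.3%) and 9 of 31 (29%, against 36.3%). Among the 10000 highest-scoring peaks of each list, 1 of 10 was lost in EtOH (10%, against 28%) and 6 of 11 in R1881 (54.5%, against 29.7%), so the share lost differed with the list length taken.

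Merged over the lists, the genes' peaks made 67 regions, 29 at promoters and 38 distal, out of 28855 at coding genes. In all 4 lists were 15 (22.4%, against 19.1%). Both R1881 lists only held 4 (5.97%, against 5.25%), all of them distal: those of HK2, PDK4, PFKFB3 and SLC2A1 given above. Both EtOH lists only held 6 (8.96%, against 2.73%): 2 of HK1 and those of PDK4, PKM, SLC2A8 and TIGAR. Both shFoxA1 lists only held 7 (10.4%, against 8.39%), at GPI, PDK4, PFKFB4, PFKL, PGK1, SLC2A12 and SLC2A8. Both shEV lists only held 0 (against 0.731%). Within 10 kb, the R1881-only and EtOH-only regions numbered 0 and 3. Among the 10000 highest-scoring peaks per list they also numbered 0 and 3, but these were not the same regions. Of the 6 EtOH-only regions, only that of SLC2A8 scored high enough to enter. The others counted there, at PGAM1 and the LTR27C element of PDK1, have R1881 peaks in the full lists that fell below the cut.

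A further 6 regions were missing from shEV EtOH alone (8.96%, against 5%): at LDHB, PDK1, SLC16A1 and TXNIP and 2 at PFKFB3. Another 5 were missing from shEV R1881 alone (7.46%, against 5.67%): at HK1, LDHA, PDK1, PFKM and PFKP. No region was in shEV R1881 and shFoxA1 EtOH only, nor in shEV EtOH and shFoxA1 R1881 only (against 1.66 and 1.95%). The 6 regions in EtOH lists only belong to 5 genes, and apart from the SLC2A8 region their scores ran from 14 to 58, at or below the median score of their lists (58 in shEV EtOH and 66 in shFoxA1 EtOH).

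**Figure D4:**
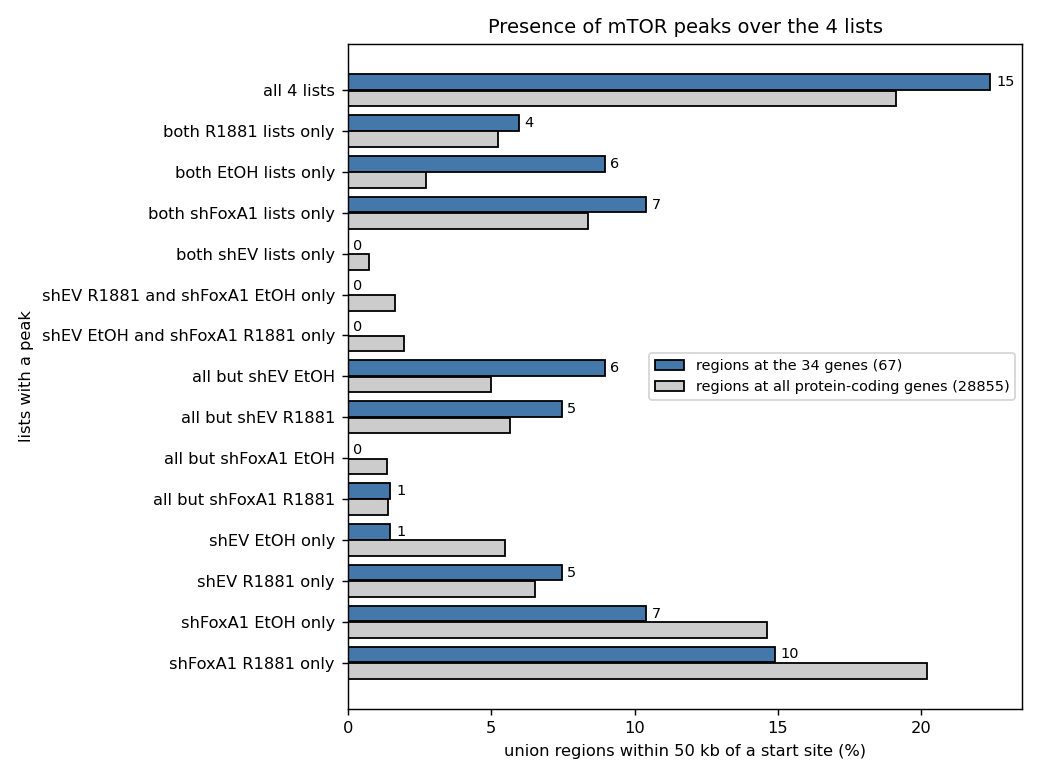
Percent of the 67 merged regions of the 34 genes (blue, with their number) and of 28855 regions at coding genes (grey) in each pattern of presence over the 4 lists (vertical). Of the 67 regions, the 15 in all 4 lists are the largest group, and the 6 in both EtOH lists only stand at 8.96% against 2.73%.

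Motif letters were counted in the RefSeq windows from 250 bases before to 50 after the start, which 31 of the genes have; PFKFB2, SLC16A1 and SLC2A3 do not. A peak overlapped the window, whichever gene the annotation named, in 8, 3, 14 and 10 of the 31 (25.8, 9.68, 45.2 and 32.3%), against 11.5, 10.2, 23.3 and 22.3% of 15843 coding windows. Only in PGK1 did it do so in all 4 lists (3.23%, against 5.52%).

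ACGTG was found on either strand in 11 windows (35.5%, against 23.7% of all) and GCGTG in 14 (45.2%, against 44.1%). The E-box CACGTG was in 3 (9.68%, against 8.88%), at LDHA, GAPDH and ALDOC. AGAACA was in 4 (12.9%, against 11.2%), at ALDOA, GPI, PDK4 and SLC2A8. The full androgen response element, an exact inverted repeat of that letter group, was in 0 (also 0% of all). As no coding window held it, this search cannot tell these genes from others. TGTTTAC was in TXNIP alone (3.23%, against 2.61%) and TGACGTCA in LDHA alone (3.23%, against 2.59%). The GC box GGGCGG, left in lower case above, was in 23 (74.2%, against 58.5%). ACGTG and CACGTG overlap, so their counts are not separate.

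Genes around the pathway were taken from 7 further lists of 69 different genes. With a peak within 50 kb were 26, 29, 41 and 46 of them (37.7, 42, 59.4 and 66.7%, against 36.5, 37.5, 49.1 and 51.6% of coding genes), and with a promoter peak 10, 16, 27 and 29 (14.5, 23.2, 39.1 and 42%, against 15.2, 13.8, 27.4 and 26.8%). Of 10 genes for pyruvate entry into mitochondria, 4, 6, 8 and 10 had a peak, and PDHX, a structural subunit of pyruvate dehydrogenase, had top scores of 1238, 1532, 1642 and 1666. Of 8 genes of the pentose phosphate pathway, 5, 4, 5 and 5 had one, and the enzymes TKT and PGLS had promoter peaks in every list. Of 9 regulators of glycolysis, 5, 5, 8 and 8 had one, with promoter peaks in all 4 lists at ARNT (the partner of HIF1A), MLXIP (MondoA) and ARRDC4 (an arrestin related to TXNIP). ARRDC4 had a peak in shEV EtOH, where TXNIP had none, and its top scores were 95, 146, 223 and 186.

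Of 23 other isoforms of the same enzymes and carriers, 6, 7, 11 and 12 had a peak, and LDHD, the dehydrogenase of D-lactate, had promoter peaks in all 4 lists. Glycogen and hexosamine genes had one at 5, 6, 6 and 7 of 12, and gluconeogenesis genes at 1, 1, 3 and 4 of 7. Of 11 genes of liver and muscle glucose handling that prostate cells are not known for, 2, 2, 4 and 5 had a peak and 0, 0, 1 and 0 a promoter peak. Peak lists cannot show whether the cells expressed the markers of the prostate line, so the cell type was not checked.

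The rule's limit of 50 kb fell between close cases. The farthest peak inside was at 42695 bp in shEV EtOH (HK1), 46204 bp in shEV R1881 (PDK4), 44770 bp in shFoxA1 EtOH (SLC2A1) and 46186 bp in shFoxA1 R1881 (PDK4). The nearest outside were at 54313 bp (GPI), 51383 bp (PDK4), 52727 bp (PFKFB3) and 51399 bp (PDK4).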

How the data were processed

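The 4 lists of mTOR peaks were used, and the 4 input libraries were not used here. The submitters' processing notes name, without role or order, the build hg38 and the tools HOMER 4.11.1, deepTools 3.5.0, MACS2, BWA 0.7.12, Trimmomatic 0.36 and Picard 2.0.1. Per the file headers each list is a HOMER annotation table, and its peaks were called in a single library. The sources used here do not give the peak caller's control and threshold or the handling of duplicate reads. The score of a peak is the authors' deposited value, of unstated definition, and was ranked only within its own list. The deposited GC fraction was printed as a percent. Gene names, distances and annotation classes were used as deposited. No read totals come with the lists, so depth is unknown.

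Peaks on chromosomes 1 to 22, X and Y were used. Peaks sharing at least 1 bp were taken as shared and merged into regions. A peak with no partner in the other list is called gained or lost, which describes presence in a thresholded list and not occupancy. Coding genes (20037) and start sequences came from RefSeq, GRCh38.p14. Shares of genes have Wilson 95% intervals, for counting error alone. With 1 library per group there was no test. Python 3.11.15, pandas 2.3.3, numpy 2.4.6, scipy 1.17.1 and matplotlib 3.10.9 were used, and the overlap functions were tested on simulated data. Genes are given in full where they had a promoter peak, a region in all 4 lists or in both lists of 1 treatment or hairpin, or 1 of the 5 highest peaks of a list. The genes and lists were chosen with earlier results of these data known. Alternatives changed the distance limit, the peaks admitted, the overlap rule, the list length and the start sites.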

Additional observations from a re-analysis of the deposited data

How the results depend on the processing

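Of 167 recomputed values, 109 stayed within 1.5 times the value reported (motif shares within their interval) and 58 did not. Requiring overlap of 50% of the shorter peak, or allowing a gap of 500 bp, moved none of them. Values are in the library order of the report, and pairs run R1881 against EtOH with shEV, then with shFoxA1, then shFoxA1 against shEV in EtOH, then in R1881. With the 10000 highest-scoring peaks per list, where fewer peaks enter, genes with a peak were 6, 9, 9 and 7, their peaks 10, 11, 13 and 10, and genes with a promoter peak 3, 2, 6 and 4. The promoter shares were 8.82, 5.88, 17.6 and 11.8%, against 4.27, 3.46, 6.26 and 5.34% of coding genes. Gained peaks were then 7, 1, 3 and 5 (63.6, 10, 23.1 and 50%, against 36.5, 33.4, 32.5 and 33.6% at coding genes). Lost peaks in the first 2 pairs were 6 and 4 (60 and 30.8%, against 35.1 and 32.5%). Regions in all 4 lists were 4, in both EtOH lists only 3, in both R1881 lists only 0 and in both shFoxA1 lists only 1. In the settings below, coding shares of peaks and regions were counted only for lists of equal length, as given above. Within 10 kb, peaks were 18, 14, 28 and 25, gained peaks 6, 4, 12 and 12, lost peaks 8 in the second pair and 1 in the last, and regions in the same 4 patterns 9, 3, 0 and 4. Within 100 kb, 2 peaks were lost in the third pair. Without peaks in repeats, shEV R1881 had 18 peaks, of which 11 were gained, 3 were lost in the last pair and 8 regions were in all 4 lists. Counting any peak within 50 kb of the RefSeq start, whichever gene was nearest (31 genes, as no strand was found for PFKFB2, SLC16A1 and SLC2A3), gave 44, 77 and 89 peaks in shEV EtOH, shFoxA1 EtOH and shFoxA1 R1881. Gained peaks were then 34, 38 and 54 in the last 3 pairs, lost peaks 21, 25, 5 and 8, and regions in both shFoxA1 lists only 14. With the longer list of a pair held to the length of the shorter, gained peaks were 11 and 12 and lost peaks 7 and 9 in the hairpin comparisons. In windows with a peak the GC box share was 87.5% and that of GCGTG 62.5%. Beyond the peaks admitted, the cause of these shifts was not tested. No library could be left out because each group is 1 library. No paired analysis was possible because the labels give no replicate numbers.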
